A study of Mus musculus with 22 samples.

Results

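Elastic fiber genes were followed across the sorted stroma of a mouse breast tumor. They were taken by symbol, whatever their values: the fibulins Fbln1, Fbln2, Fbln5, Fbln7, Efemp1 and Efemp2, elastin (Eln), the fibrillins Fbn1 and Fbn2, and Emilin1. These are 10 of 41388 genes in the count files and 10 of 15018 genes tested, and all 10 were matched to an Ensembl identifier. An elastic fiber is built on a scaffold of microfibrils, which are made mainly of fibrillin. Elastin is laid on this scaffold with the help of the short fibulins and is then crosslinked by lysyl oxidases. Mesenchymal cells such as fibroblasts and smooth muscle cells are the usual makers of these proteins.

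RNA came from the stroma of tumors raised by the PyMT-BO1 breast cancer line (MMTV-BO1 in the sample labels) in C57BL/6 mice at postnatal day 56, after removal of GFP-labelled tumor cells. The site is called orthotopic in the labels but subcutaneous in the design text. All mice carried Osx-cre, a Cre driven by the promoter of osterix (Sp7), a transcription factor of bone-forming cells, and the Ai9 reporter, which leaves descendants of Cre-expressing cells marked by TdTomato (TdTOSX). Per the study, reporter mice were by then kept on doxycycline, which represses this Cre, until weaning, so that the mark arises in adult cells; the labels do not give the diet of these mice. The other genotype, Cdh2-cKO, also had the N-cadherin gene Cdh2 targeted in cells with Cre, and 6 Cdh2-cKO and 4 wild type mice were inoculated. Cells were sorted by TdTomato and the pan-leukocyte antigen CD45 into single positive (TdTOSX+;CD45-), double negative (TdTOSX-;CD45-), double positive (TdTOSX+;CD45+) and CD45 single positive (TdTOSX-;CD45+) cells. Each genotype had 2 single positive libraries and 3 libraries of each other population, 22 in all. The labels call them biological replicates without saying which came from one mouse.

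The libraries held 16594228 to 26784003 reads on genes. A count of 3 reads, used here as the detection floor, was worth 0.103 to 0.201 normalized CPM (reads scaled to library size), so a gene under that level was not detectable. The 10 CD45- libraries were not free of leukocyte transcripts: the 10 leukocyte markers summed to 133 to 15810 CPM there, against 13459 to 45828 CPM in the 12 CD45+ libraries. Double negative wild type replicate 3 held the most, with Ptprc (CD45) at 337 CPM, and CD45 single positive wild type replicate 2 stood apart by its B and T cell transcripts, with Cd79a at 865 CPM. Of the bone-forming cell markers, Sp7 and Bglap had at most 3 reads in every library, and all 7 summed to at most 93.5 CPM in any CD45- library. Cdh2 was not lower in the CD45- libraries labelled Cdh2-cKO. It was at 4.52 to 9.13 CPM in the 5 wild type CD45- libraries and at 12.5 to 18.4 CPM in the 5 labelled Cdh2-cKO. The log2 fold change was 1.08 in single positive and 1.32 in double negative cells, and neither had an unadjusted p under 0.05 by edgeR. Double negative cells lack the TdTomato mark, so only the single positive libraries bear on a loss in cells with Cre. A count over the whole gene cannot show whether a part of it was deleted.

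In GRCm38 coordinates, Fbln1 lies at chr15:85205949-85286535, Fbln2 at chr6:91212455-91272540, Fbln5 at chr12:101746565-101819055 and Fbln7 at chr2:128862981-128897034. Efemp1, which encodes fibulin-3, lies at chr11:28853204-28926743, and Efemp2, which encodes fibulin-4, at chr19:5473973-5481853. Eln lies at chr5:134703781-134747241, Fbn1 at chr2:125300594-125507993 and Emilin1 at chr5:30913402-30921278. Reads were counted over exons. In GENCODE M21 the exons of Efemp2, Eln, Fbn1 and Fbn2 share 173, 267, 2442 and 129 bases with a gene on the opposite strand. With a library kit that keeps no strand such reads cannot be told apart. Per the study only unambiguous reads were counted, so reads there would go uncounted where the annotation used held both genes. Whether it did was not checked.

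Because 9 of the genes differed together between CD45- and CD45+ cells, the start regions are shown for the 4 genes whose nearest RefSeq start lay within 100 bases of the gene start in the files. RefSeq (GRCm38.p6) gave a start region for 8 of the 10 genes. Each line runs 5′ to 3′ on the gene's strand, from 250 bases before the start to 50 bases after it. Capitals mark GGGCGG, the core of a GC box bound by Sp factors, and TGANTCA, on either strand. The latter pattern covers the AP-1 element, whose middle base is C or G, but allows any middle base.
Fbln1 (chr15:85205699-85205998, + strand): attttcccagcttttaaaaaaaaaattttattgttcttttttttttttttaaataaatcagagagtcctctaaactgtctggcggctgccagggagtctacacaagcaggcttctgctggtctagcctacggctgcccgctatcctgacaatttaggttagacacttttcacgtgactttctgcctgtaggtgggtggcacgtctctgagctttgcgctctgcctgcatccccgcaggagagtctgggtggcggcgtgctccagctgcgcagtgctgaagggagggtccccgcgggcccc
Fbln5 (chr12:101819070-101819369, - strand): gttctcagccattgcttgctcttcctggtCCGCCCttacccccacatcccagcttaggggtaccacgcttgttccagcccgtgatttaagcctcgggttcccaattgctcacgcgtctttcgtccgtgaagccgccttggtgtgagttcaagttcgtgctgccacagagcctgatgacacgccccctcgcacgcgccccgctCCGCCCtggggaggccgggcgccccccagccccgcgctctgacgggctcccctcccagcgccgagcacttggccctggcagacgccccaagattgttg
Efemp1 (chr11:28852955-28853254, + strand): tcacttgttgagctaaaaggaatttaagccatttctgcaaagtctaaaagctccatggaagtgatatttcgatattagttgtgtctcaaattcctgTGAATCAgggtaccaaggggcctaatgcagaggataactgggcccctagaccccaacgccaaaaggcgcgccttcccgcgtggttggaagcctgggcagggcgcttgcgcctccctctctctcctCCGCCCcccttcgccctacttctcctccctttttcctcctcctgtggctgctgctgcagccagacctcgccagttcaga
Efemp2 (chr19:5473696-5473995, + strand): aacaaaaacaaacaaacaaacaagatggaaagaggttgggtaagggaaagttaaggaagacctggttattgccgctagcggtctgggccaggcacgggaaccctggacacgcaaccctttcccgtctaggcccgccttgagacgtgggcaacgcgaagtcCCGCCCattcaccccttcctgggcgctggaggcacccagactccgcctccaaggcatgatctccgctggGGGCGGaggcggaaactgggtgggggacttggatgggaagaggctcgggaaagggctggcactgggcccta

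Fbln5 and Efemp2 each had 2 matches to GGGCGG, Efemp1 had 1 and this Fbln1 region had 0. A second RefSeq start of Fbln1, 58 bases from the gene start in the files and not printed here because it overlaps the first, had 2. Of all 32851 RefSeq start regions of this length, 35.7% held GGGCGG. The pattern TGANTCA matched once, in Efemp1, against 7.81% of all regions. The match was TGAATCA, which is not the AP-1 element itself. None of the 4 held TATAAA, the TATA box, which was in 13.6% of all regions. The TEAD element GGAATG was in none of the 4 and in 14.7% of all regions. The RUNX element TGTGGT was also in none of them and in 16.8% of all regions. A match of letters is a description of the sequence only.

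The first comparison asked how elastic fiber transcripts divide between the non-immune and the immune stroma. All but Emilin1 were far higher in CD45- cells, whether or not the cells carried TdTomato. Of the 10 genes, 9 were called, meaning that the log2 fold change reached 2 and the Benjamini-Hochberg adjusted p of the edgeR quasi-likelihood test did not exceed 0.05, where 16.1% of all genes tested did so in that direction. For the same 9 genes each CD45- library lay above each CD45+ library, which held for 11% of all genes tested. The median log2 fold change was 7.07 over the 10 genes and -0.06 over all genes tested. Fbln1, Fbln7, Eln and Fbn2 had passed the filter on low counts only through the CD45- libraries, so for these 4 a difference was built into being tested. In RNA from sorted bulk cells, fewer cells of a type and less RNA per cell cannot be told apart.

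**Figure D1:**
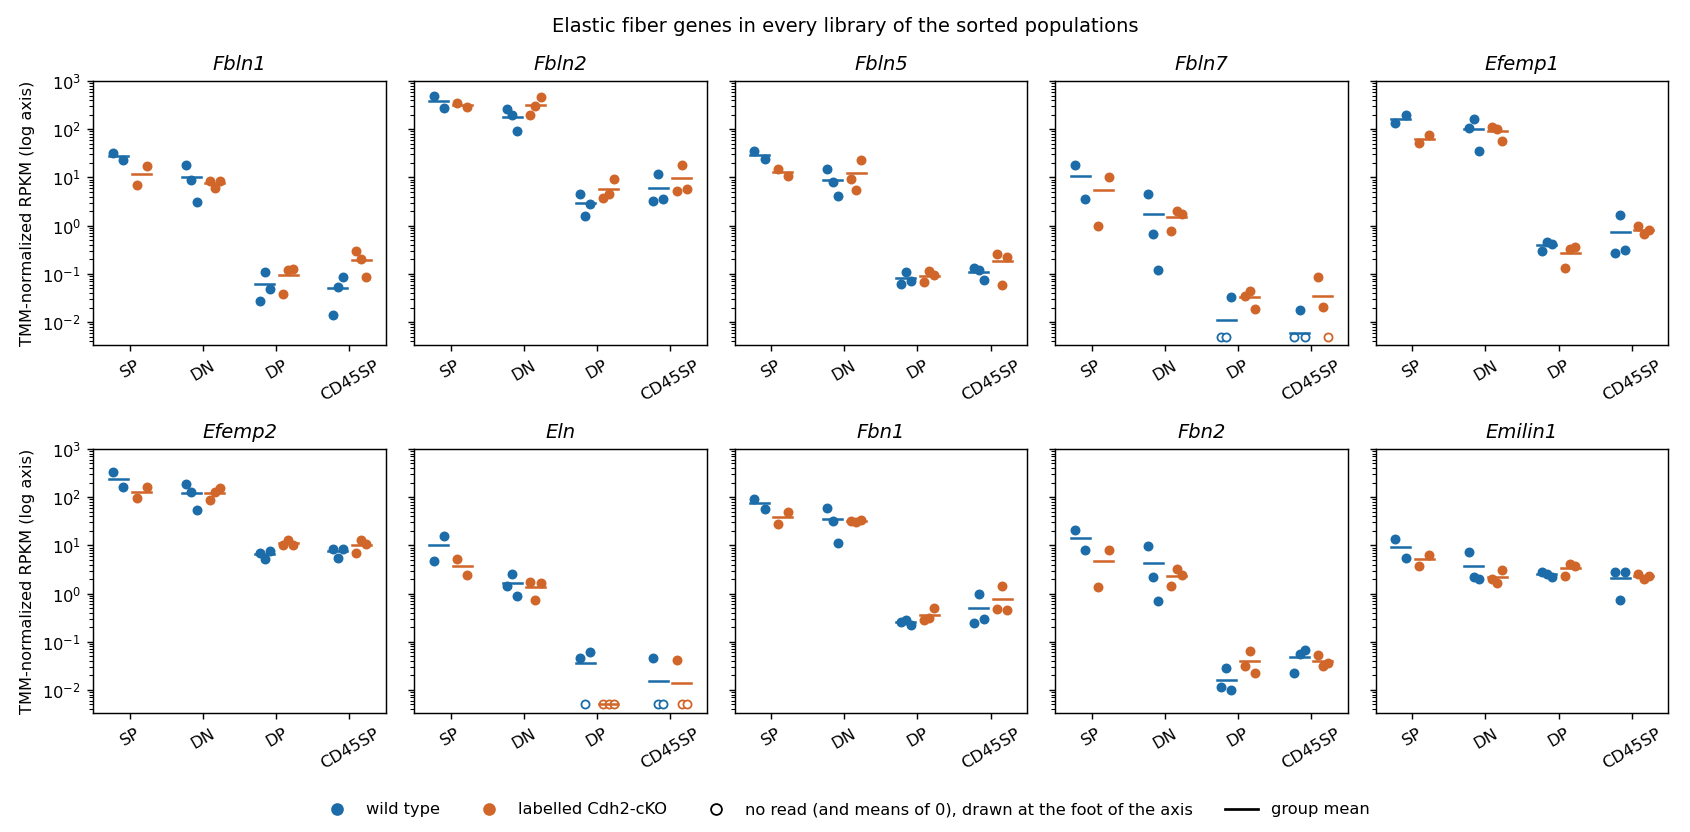
TMM-normalized RPKM (log axis) of each gene in each of the 22 libraries, by sorted population (SP, single positive; DN, double negative; DP, double positive; CD45SP, CD45 single positive) and genotype label, with lines at group means; open circles, and lines at the same height, stand for 0 reads. All genes but Emilin1 drop from the 2 CD45- populations to the 2 CD45+ populations without overlap.

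Eln, the precursor of the elastic core, was at 12.2 and 41.0 CPM in the single positive wild type libraries and at 13.3 and 6.29 CPM in those labelled Cdh2-cKO. In double negative cells it was at 3.72, 6.65 and 2.31 CPM in wild type and at 4.52, 1.89 and 4.38 CPM in Cdh2-cKO libraries. In the 12 CD45+ libraries it drew 9 reads in all, with none in 8 libraries and at most 3 in any. Each CD45+ library was therefore at or under the floor. The fitted log2 fold change of Eln was 7.87 ± 0.559 (SE, adjusted p = 1.03e-08, edgeR), a size that depends on how such low counts are smoothed.

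Fbn1, the main fibrillin of adult microfibrils, was at 1119 and 694 CPM in single positive wild type libraries and at 329 and 603 CPM in those labelled Cdh2-cKO. Double negative libraries held 728, 389 and 137 CPM in wild type and 392, 370 and 401 CPM in Cdh2-cKO libraries. In CD45+ cells the lowest, median and highest values were 2.74, 3.72 and 17.0 CPM. The log2 fold change was 6.59 ± 0.361 (SE, adjusted p = 1.42e-10, edgeR).

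Fbn2 (chr18:58008623-58209926), the fibrillin best known from development, was at 219 and 83.6 CPM in single positive wild type libraries and at 14.2 and 85.0 CPM in those labelled Cdh2-cKO. In double negative cells it was at 104, 23 and 7.49 CPM in wild type and at 15, 33.3 and 24.9 CPM in Cdh2-cKO libraries. It varied more between CD45- libraries than Fbn1, with an SD of 1.54 on the log2 scale against 0.82. In CD45+ cells it did not exceed 0.700 CPM, and its log2 fold change was 7.21 ± 0.505 (SE, adjusted p = 2.31e-09, edgeR).

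Fbln2, which binds fibrillin and elastin and is found in microfibrils and basement membranes, had the most reads of the 10 genes. It was at 2873 and 1599 CPM in single positive wild type libraries and at 2097 and 1727 CPM in those labelled Cdh2-cKO. Its double negative values were 1528, 1157 and 551 CPM in wild type and 1179, 1754 and 2806 CPM in Cdh2-cKO libraries. It made up 45.4% to 71.2% of the summed CPM of the 10 genes in each CD45- library. In CD45+ cells the lowest, median and highest values were 9.24, 26.6 and 106 CPM, well above the floor. The log2 fold change was 5.70 ± 0.368 (SE, adjusted p = 8.47e-10, edgeR).

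Fbln1, the other long fibulin, was far less abundant. It was at 139 and 99.5 CPM in single positive wild type libraries and at 29.8 and 73.8 CPM in those labelled Cdh2-cKO, and at 13.6 to 78.4 CPM in the 6 double negative libraries. It stayed at or below 1.32 CPM in CD45+ cells. The log2 fold change was 7.13 ± 0.377 (SE, adjusted p = 1.11e-10, edgeR).

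The short fibulins assist elastic fiber assembly. Fbln5, which binds elastin and integrins, was at 208 and 138 CPM in single positive wild type libraries and at 85.4 and 63.7 CPM in those labelled Cdh2-cKO. In double negative cells it was at 85.6, 46.2 and 23.7 CPM in wild type and at 55.2, 31.9 and 132 CPM in Cdh2-cKO libraries. CD45+ libraries held 0.334 to 1.54 CPM.

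Efemp2 (fibulin-4), which brings lysyl oxidase to elastin, was at 866 and 425 CPM in single positive wild type libraries and at 252 and 423 CPM in those labelled Cdh2-cKO. Double negative values were 499, 333 and 146 CPM in wild type and 231, 336 and 419 CPM in Cdh2-cKO libraries. Unlike the other short fibulins it kept a steady level in CD45+ cells, 14 to 33.8 CPM with a median of 22.4 CPM, and its mean there was 5.94% of its mean in CD45- cells. Its log2 fold change of 4.10 ± 0.223 (SE, adjusted p = 1.42e-10, edgeR) was the smallest of the 9.

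Efemp1 (fibulin-3) was at 270 and 401 CPM in single positive wild type libraries and at 103 and 158 CPM in those labelled Cdh2-cKO. Double negative cells held 214, 327 and 71.9 CPM in wild type and 228, 205 and 115 CPM in Cdh2-cKO libraries. It thus ran as high in double negative cells as in single positive ones, with medians of 210 and 214 CPM. CD45+ libraries held 0.276 to 3.38 CPM.

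Fbln7, a fibulin first described in teeth and cartilage, had the widest range. It was at 58.0 and 11.8 CPM in single positive wild type libraries and at 3.22 and 32.3 CPM in those labelled Cdh2-cKO. The double negative libraries were at 14.4, 2.20 and 0.385 CPM in wild type and at 2.52, 6.64 and 5.59 CPM in Cdh2-cKO libraries. The low end of the range was 7 reads, in wild type replicate 3, the CD45- library with the most leukocyte transcripts. In CD45+ cells it drew 15 reads over 12 libraries, with none in 5.

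Emilin1, a glycoprotein at the interface of elastin and microfibrils, was the exception. It was at 65.8 and 26.9 CPM in single positive wild type libraries and at 18.8 and 31.4 CPM in those labelled Cdh2-cKO. In double negative cells it was at 35.6, 11 and 9.86 CPM in wild type and at 9.83, 8.0 and 15.3 CPM in Cdh2-cKO libraries. CD45+ cells held 3.61, 12.5 and 20.3 CPM as the lowest, median and highest values, so both compartments overlapped. Its mean in CD45+ cells was 54.4% of that in CD45- cells, and the log2 fold change of 0.83 ± 0.269 (SE, adjusted p = 0.0117, edgeR) was below the fold threshold.

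The remaining log2 fold changes were 7.01 for Fbln5, 7.60 for Efemp1 and 7.50 for Fbln7. The same comparison within TdTOSX+ cells and within TdTOSX- cells called 9 of the 10 genes, against 16.2% and 15.4% of all genes called higher. The same 9 lay above without overlap, against 20.2% and 15.3% of all genes. Both are parts of the first comparison and no independent repeat of it. The limit set by the filter for Fbln1, Fbln7, Eln and Fbn2 holds here too. Emilin1 was at 1.24 ± 0.395 (SE, adjusted p = 0.0156) and 0.43 ± 0.362 (SE, adjusted p = 0.336) there by the edgeR test. For reference, the 9 fibroblast markers kept 0.455% to 5.33% of their mean CD45- level in CD45+ cells, with a median of 0.716%. The top of this range was set by Fap (5.33%), Thy1 (4.12%) and Mmp2 (2.28%), and the other markers lay at 0.455% to 1.01%. Eln (0.439%), Fbln7 (0.499%), Efemp1 (0.541%), Fbn2 (0.622%), Fbln1 (0.768%) and Fbln5 (0.775%) did not exceed 1.01%. Fbn1 (1.12%) and Fbln2 (2.09%) were above 1.01% but within the whole range. Efemp2 was above all 9 markers, slightly above Fap, and Emilin1 was far above them.

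Within CD45+ cells, Fbln2 and Fbn1 were uneven in the CD45 single positive libraries. Fbln2 was at 19.1, 68.5 and 20.5 CPM in wild type and at 30.2, 106 and 34.3 CPM in libraries labelled Cdh2-cKO, highest in replicate 2 of each. Fbn1 was at 2.95, 11.7 and 3.66 CPM and at 5.88, 17.0 and 5.57 CPM, again highest in replicate 2. Fibroblast markers summed to 83.4, 186 and 73.5 CPM in wild type and to 181, 106 and 128 CPM in the others, so replicate 2 was highest in wild type and lowest in the others. Epithelial markers summed to 339, 205 and 151 CPM and to 268, 470 and 226 CPM, with replicate 2 highest only among those labelled Cdh2-cKO. This sum mixes markers of both directions, as Epcam (-4.96) and Cdh1 (-4.07) were called lower in CD45- than in CD45+ cells. The keratin Krt18 was at 17.4, 67.7 and 46.7 CPM in wild type and at 38.5, 169 and 73 CPM in the others. Krt18 and Krt8, 2 genes of that list, were highest in replicate 2 of each genotype, as Fbln2 and Fbn1 were. Wild type replicate 2 was also the library that stood apart by its B and T cell transcripts. Endothelial markers summed to 12.5, 217 and 11.4 CPM in wild type and to 15.9, 20.3 and 22.5 CPM in the others. The part of other cells in these values was not tested. Between double positive and CD45 single positive cells 0 of the 10 genes passed an adjusted p of 0.05 by edgeR, limma-voom or DESeq2, where 0.00666% of all genes did by edgeR. An unadjusted p under 0.05 was reached by 2 of them and by 609 of the 15018 genes tested.

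Levels of different genes can be compared only per length. By the median RPKM (reads scaled by gene length and library size) over the 10 CD45- libraries the order was Fbln2 (283), Efemp2 (143), Efemp1 (103), Fbn1 (32.7), Fbln5 (12.8), Fbln1 (8.72), Emilin1 (3.45), Fbn2 (2.77), Eln (2.09) and Fbln7 (1.89). Elastin RNA itself was thus among the scarcest of the set as counted. The Eln gene that was counted ended at chr5:134703781, while in GENCODE M21 it runs on to 134702593, and reads beyond that end were not counted. The counted Efemp2 and Fbn2 genes were also shorter than in GENCODE M21. What this and the bases shared with genes on the opposite strand did to the order was not tested. The ranges of each gene and its next neighbour overlapped across libraries. Inside single libraries Fbln2 exceeded Efemp2, Efemp1 exceeded Fbn1, Fbn1 exceeded Fbln5 and Fbln1 exceeded Emilin1 in 10 of 10. The order of Emilin1, Fbn2, Eln and Fbln7 was undecided, with each above the next in 5 of 10 libraries.

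The second comparison asked whether TdTOSX+ cells differ from their TdTOSX- neighbours in the non-immune stroma. The fitted value was above 0 for all 10 genes, but 0 of them passed an adjusted p of 0.05 by edgeR, where 1.89% of all genes did. Without adjustment 6 had a p under 0.05, as did 2847 of the 15018 genes tested. Limma-voom called 3 (Fbln1, Eln and Emilin1) and 718 over all genes. DESeq2 called 1 (Eln) and 982 over all genes. The median log2 fold change was 0.96 over the 10 genes, against 0.07 over all genes tested and 1.12 over the 9 fibroblast markers. No gene had all 4 single positive libraries above all 6 double negative ones, which 2.72% of all genes had.

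Eln had the lowest adjusted p of the 10 in this comparison, without passing the threshold. Its log2 fold change was 2.05 ± 0.534 (SE, adjusted p = 0.0593, edgeR), and the adjusted p ran from 0.00625 to 0.497 over the alternatives tried. One single positive library (6.29 CPM) lay under the highest double negative library (6.65 CPM), and the wild type library at 41.0 CPM set the top. Fbln7 was at 2.23 ± 0.758 (SE, adjusted p = 0.122, range 0.0239 to 0.602) and Emilin1 at 1.24 ± 0.395 (SE, adjusted p = 0.103, range 0.0243 to 0.566) in the same test. The other values were 1.39 for Fbn2, 1.04 for Fbln1, 0.88 for Fbln5, 0.69 for Fbn1, 0.53 for Fbln2, 0.51 for Efemp2 and 0.11 for Efemp1. With 1 library left out, Fbln7 ranged from 1.0 to 3.29 and Fbn2 from 0.49 to 2.17. Both were lowest without single positive Cdh2-cKO replicate 2, where Fbn2 lay under Fbln1 (0.65).

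These counts depended on the libraries and the tool. Calls over all genes moved with them. Without double negative wild type replicate 1, edgeR called 3 genes (Fbln7, Fbn2 and Emilin1) and 525 over all genes, against 284 in the main fit. Without CD45 single positive wild type replicate 2 it called 2 (Eln and Emilin1) and 702 over all genes. Without that library and double negative wild type replicate 3 it called the same 2 genes and 1509 over all genes. Same-numbered libraries could come from one mouse, which the labels do not say. A fit blocked on replicate number called 0 of the 10 and 185 over all genes. With both this block and the fit limited to the 10 CD45- libraries, an alternative added after the data were seen, 4 were called. They were Fbln5 (1.04), Fbln7 (1.71), Eln (1.83) and Emilin1 (1.19), and 1396 of 14313 genes were called over all. The share of each change in this was not tested.

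**Figure D2:**
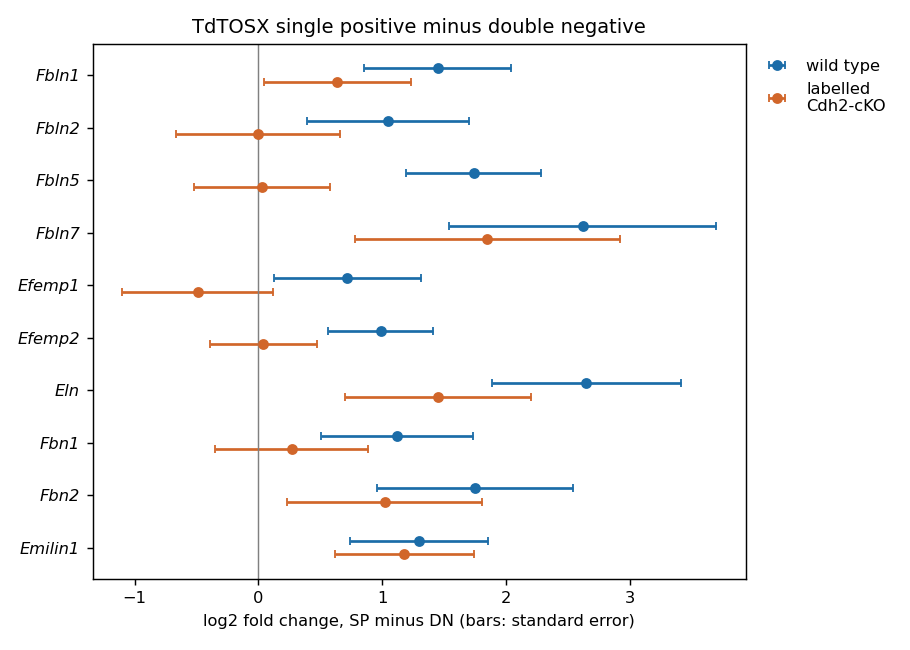
Log2 fold change of single positive over double negative cells for each gene, in wild type libraries and in those labelled Cdh2-cKO, with standard errors (2 against 3 libraries each). Values in wild type run from 0.72 to 2.65 and those labelled Cdh2-cKO from -0.49 to 1.85.

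Between the wild type libraries of these populations, within the fit of all libraries, the values ran from 0.72 for Efemp1 to 2.65 ± 0.762 (SE, adjusted p = 0.136, edgeR) for Eln. Of the 10 genes 0 were called by edgeR and limma-voom and 1 (Eln) by DESeq2, against 0.16% of all genes by edgeR. Over all genes limma-voom called 1 and DESeq2 called 500. An unadjusted p under 0.05 was reached by 7 of the 10 and by 2508 of the 15018 genes tested. Fbln1, Fbln2, Fbln5 and Eln had both single positive libraries above the 3 double negative ones, as did 16.1% of all genes. Without double negative wild type replicate 1, edgeR called 4 (Fbln5, Fbln7, Fbn2 and Emilin1) and 475 over all genes.

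In libraries labelled Cdh2-cKO the values ran from -0.49 for Efemp1 to 1.85 ± 1.07 (SE, adjusted p = 0.515, edgeR) for Fbln7, and Fbln2 was at 0.00, Fbln5 at 0.03 and Efemp2 at 0.04. None of the 3 tools called any of the 10, against 0.0333% of all genes by edgeR. An unadjusted p under 0.05 was reached by 1 of the 10 and by 1942 of the 15018 genes tested. Eln and Emilin1 were above without overlap, as were 21.7% of all genes. The difference between genotypes was itself tested. It was below 0 for all 10 genes, from -1.70 to -0.11. By edgeR, limma-voom or DESeq2 0 of them were called, where 0.00666% of all genes were called by edgeR. An unadjusted p under 0.05 was reached by 1 of the 10 and by 1512 of the 15018 genes tested. In the same test 9 of 9 leukocyte markers were above 0 (median 5.15, 8 with an unadjusted p under 0.05), and all fibroblast (median -1.11), pericyte (-1.14) and endothelial (-1.42) markers were below 0, with 0 of them called. The part of these markers was not tested.

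Markers of several cell types moved with this comparison. The fibroblast markers summed to 12326 to 46800 CPM in the 4 single positive and to 3450 to 24810 CPM in the 6 double negative libraries, and the 8 pericyte and smooth muscle markers to 1192 to 4262 CPM and 326 to 2372 CPM. Epithelial markers, 8 in all, went the other way, at 33.9 to 936 CPM and 505 to 1995 CPM, and endothelial markers were at 62.8 to 223 CPM and 42.9 to 402 CPM. Leukocyte markers were at 133 to 10892 CPM and 202 to 15810 CPM. In the test 9 of 9 fibroblast and 8 of 8 pericyte markers were above 0. Leukocyte markers differed by genotype label, with 0 of 9 tested above 0 in wild type (median -1.52) and 9 of 9 in libraries labelled Cdh2-cKO (median 3.80, 8 with an unadjusted p under 0.05). None of these markers was called. The part of these differences in the elastic fiber values was not tested.

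Setting each gene against the mean log2 level of the 9 fibroblast markers in the same library showed which genes followed that level. The SD over the 10 CD45- libraries went from 1.01 to 0.28 for Fbln1, from 0.82 to 0.31 for Fbn1, from 0.98 to 0.47 for Fbln5, from 0.99 to 0.43 for Emilin1, from 0.70 to 0.42 for Efemp2 and from 1.54 to 0.71 for Fbn2 (log2 scale). It stayed about the same for Fbln2 (0.69 and 0.66) and was larger for Efemp1 (0.78 and 0.89). It went from 2.09 to 1.21 for Fbln7 and from 1.32 to 1.09 for Eln, which remained the widest. The lowest relative value of Fbln7 (-2.19 from its mean) was in double negative wild type replicate 3, with 7 reads.

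Against these markers, single positive libraries were above double negative ones by 1.18 for Fbln7, 0.84 for Eln, 0.32 for Fbn2 and 0.15 for Emilin1 (difference of mean log2 levels). Fbln1 and Fbln5 were at -0.02 and -0.08, and Fbn1, Fbln2, Efemp2 and Efemp1 at -0.36, -0.56, -0.60 and -0.91. These are descriptions without a test.

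**Figure D3:**
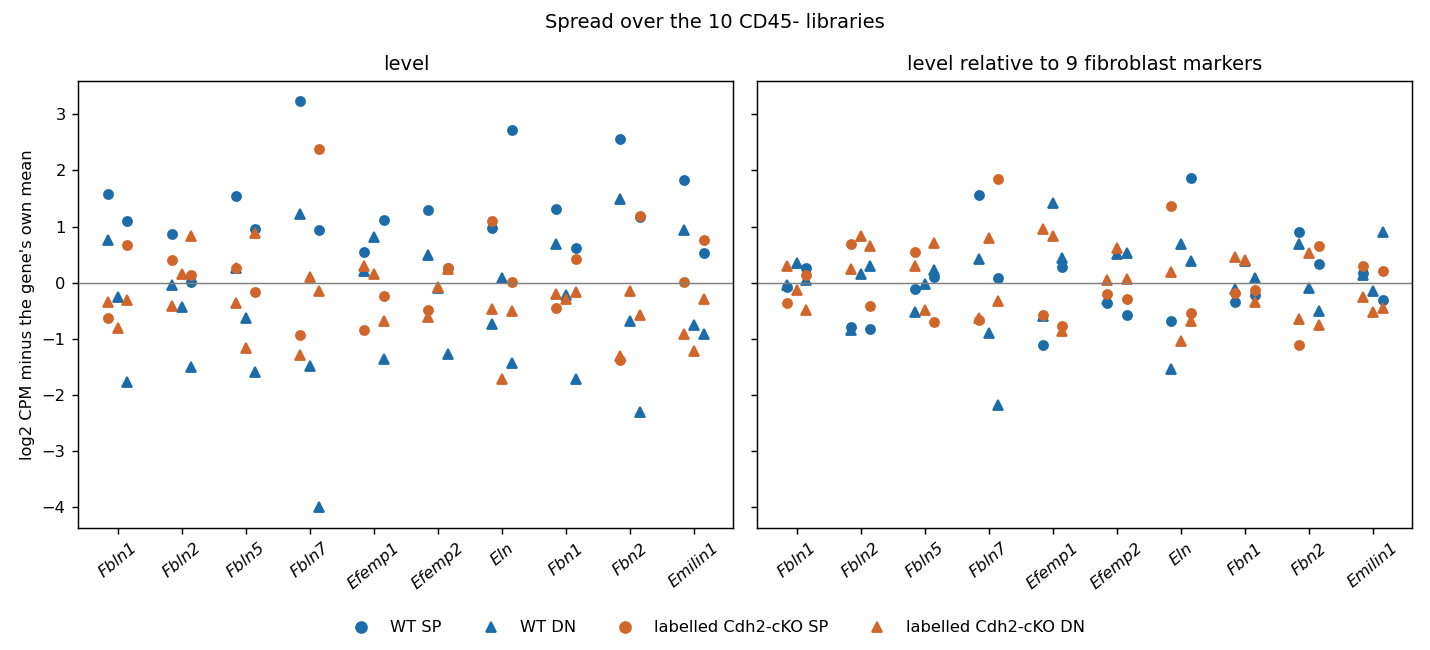
Spread of each gene over the 10 CD45- libraries as log2 CPM minus the gene's own mean (left) and after subtracting the mean log2 level of the 9 fibroblast markers in the same library (right), with circles for single positive and triangles for double negative libraries. The points of Fbln1 and Fbn1 draw together on the right (SD 0.28 and 0.31), while Fbln7 and Eln are the widest there (SD 1.21 and 1.09).

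The third comparison asked whether targeting Cdh2 in cells with Cre altered these genes. A reserve is that Cdh2 RNA was not lower in the single positive libraries so labelled (log2 fold change 1.08, not called). In single positive cells all 10 values were below 0, from -1.61 ± 0.896 (SE, adjusted p = 0.545, edgeR) for Fbn2 to -0.23 ± 0.727 (SE, adjusted p = 0.937) for Fbln2. None passed an adjusted p of 0.05 by edgeR, limma-voom or DESeq2, where 0.00666% of all genes were called by edgeR. An unadjusted p under 0.05 was reached by 0 of the 10 and by 1576 of the 15018 genes tested. The values were -1.44 for Eln, -1.36 for Efemp1, -1.21 for Fbln5, -1.20 for Fbln1, -0.97 for Fbln7, -0.96 for Fbn1, -0.93 for Efemp2 and -0.88 for Emilin1.

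Fbln1, Fbln5, Efemp1, Efemp2 and Fbn1 had both libraries labelled Cdh2-cKO below both wild type ones, as did 20.7% of all genes. The 9 fibroblast markers were likewise all below 0, with a median of -1.10 against -1.09 for the elastic fiber genes. The 10 leukocyte markers summed to 133 and 5233 CPM in the wild type and to 10892 and 4718 CPM in the other libraries, with overlap. Sums of 3 lists were lower without overlap in the libraries labelled Cdh2-cKO: fibroblast markers (46800 and 26578 CPM in wild type, 12326 and 23720 CPM in the others), pericyte and smooth muscle markers (4262 and 2989 CPM, 1192 and 2704 CPM) and endothelial markers (110 and 223 CPM, 90.1 and 62.8 CPM). Sums of 2 lists were higher without overlap, the 8 skeletal muscle markers, at 23.2 and 10.8 CPM in wild type and 31.8 and 160 CPM in the other libraries, and the 8 epithelial markers, at 33.9 and 566 CPM against 936 and 928 CPM. Their part was not tested. The wild type single positive libraries enter both this comparison and that of single positive with double negative cells, so the values of both are not independent.

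**Figure D4:**
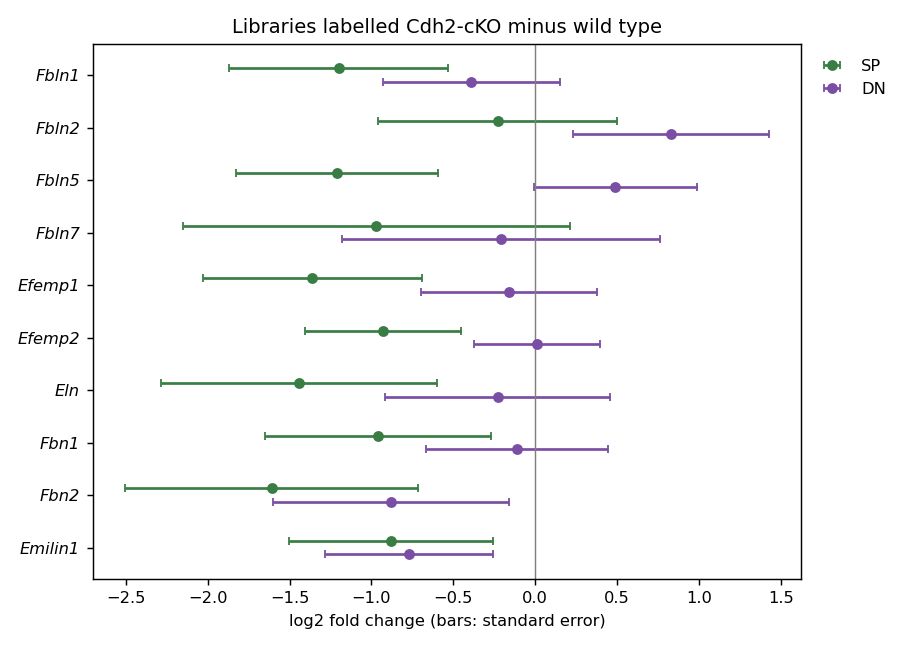
Log2 fold change of libraries labelled Cdh2-cKO over wild type for each gene in single positive (SP, 2 against 2 libraries) and double negative (DN, 3 against 3) cells, with standard errors. All 10 values are below 0 in SP and run from -0.88 to 0.83 in DN.

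In double negative cells, which lack the TdTomato mark, the values ran from -0.88 to 0.83 and 3 were above 0. None of the 3 tools called any of the 10, and 0% of all genes were called by edgeR. Without adjustment 0 of the 10 had a p under 0.05, against 1441 of the 15018 genes tested. No gene was free of overlap between the genotypes, where 3.87% of all genes lay above and 5.35% below without overlap. In double positive cells 0 were called by any of the 3 tools (0% of all genes by edgeR). An unadjusted p under 0.05 was reached by 1 of the 10 and by 515 of all genes. Efemp2 alone lay above without overlap, as did 6.76% of all genes. In CD45 single positive cells the counts of the 10 genes were the same, with 1474 of all genes at an unadjusted p under 0.05. Fbln1, at 0.0602 to 0.377 CPM in wild type and 0.384 to 1.32 CPM in the other libraries, lay above without overlap, as did 4.16% of all genes. The wild type values of Fbln1 there were 1 to 7 reads, near the detection floor.

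The genes that work with these proteins were counted from lists. Of 20 microfibril partners 19 were tested, and 14 were higher in CD45- than in CD45+ cells while 0 were lower, against 16.1% and 8.62% of all genes. The most abundant per length were Mfap2 (328 RPKM, log2 fold change 7.50), Mfap5 (266 RPKM, 7.39) and Mfap4 (98.0 RPKM, 7.57), which are microfibril proteins, and Ltbp1 (21.4 RPKM, 3.45), which tethers latent TGF-β. RPKM here is the mean over the 10 CD45- libraries. Emilin2, the paralog of Emilin1, was at -1.82 and under the fold threshold, and is named after its value was seen.

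Of 8 crosslinking genes 6 were higher and 0 lower. Fkbp10, a collagen and elastin chaperone, was at 74.9 RPKM (7.34), and the lysyl oxidases Loxl3, Lox and Loxl1 at 66.2 RPKM (4.78), 45.5 RPKM (7.33) and 31.5 RPKM (7.67). Of 8 genes for enzymes that cut elastic fibers 6 were tested, with 2 higher (Mmp2 and Ctsk) and 2 lower (Mmp12 and Ctss). The most abundant were the cathepsins Ctsl (992 RPKM, 0.47), Ctss (857 RPKM, -3.39) and Ctsk (375 RPKM, 2.33), and the gelatinase Mmp2 (133 RPKM, 5.43), which is also in the fibroblast list.

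Of 10 genes for elastin receptors and integrins 1 was higher (Itgb3) and 0 lower. Lgals3 (231 RPKM, -1.93), Ctsa (124 RPKM, -1.77), Itgb1 (121 RPKM, 1.03) and Itga5 (57.3 RPKM, 1.28) led by level. Of the 3 TGF-β ligands Tgfb2 (7.12) and Tgfb3 (2.77) were higher, and Tgfb1 was at -0.82.

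Between single positive and double negative cells 3 genes of these lists rose and 0 fell, against 1.23% of all genes that rose. They were Adamts10, a protease that binds fibrillin (1.04 ± 0.256 SE, adjusted p = 0.0473), the elastase-like gelatinase Mmp9 (2.82 ± 0.446 SE, adjusted p = 0.00549) and Neu1, the sialidase of the elastin receptor complex (1.07 ± 0.251 SE, adjusted p = 0.0417), all by the edgeR test. By list this was 1 of 19 microfibril partners, 1 of 6 cutting enzymes and 1 of 10 receptors and integrins tested. Within either genotype no gene of these lists was called. The median of the cutting enzymes was 0.53 in wild type and 2.09 in Cdh2-cKO libraries, and that of leukocyte markers -1.52 and 3.80. The part of leukocytes was not tested. With 1 library left out, 30 to 878 of all genes were called, and these 3 were not followed there. Among the 8 crosslinking genes all values were above 0, with a median of 0.79, and 0 were called (3 with an unadjusted p under 0.05).

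Genes with the most similar profile over the 10 CD45- libraries were sought by Pearson correlation of log2 CPM among all genes tested. The libraries share their mix of cells, so the values are descriptive, and none of the 30 nearest genes was itself one of the 10. Fbln5 was nearest to Pdgfra (r = 0.980), a receptor of fibroblasts that is also in the fibroblast list, then Tspan11 (0.971) and Insc (0.963). Fbn1 was nearest to Bmp1 (0.984), the procollagen C-proteinase, then Cdr2l and P3h3 (both 0.982). Fbn2 was nearest to Vcan (0.996), the proteoglycan versican that binds fibrillin, then Aoc3 (0.990) and Adra2a (0.987).

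Fbln7 was nearest to Tsku (0.986), Snai2 (0.985), a mesenchymal transcription factor, and Col15a1 (0.984). Fbln1 was nearest to B4galt2 (0.992), Mmp23 and Selenom (both 0.982), and Efemp2 to Maged2 (0.977), Sparc (0.976) and Kcne4 (0.974). Efemp1 was nearest to Omd and Ly6c1 (both 0.956) and Lbp (0.948), and Fbln2 to Slc44a2 (0.970), Cyth3 (0.966) and Adamts7 (0.964). Emilin1 was nearest to Jak1 (0.979), Colgalt1 (0.976) and Tmc7 (0.970). Eln had the loosest neighbours, Atp8a2 and Srebf1 (both 0.953) and Tspyl2 (0.934). Among the 45 pairs of the 10 genes r ran from 0.234 to 0.972 with a median of 0.706.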

How the data were processed

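Library preparation by the authors used an amplifying kit that keeps no strand, with single-end 50-base reads. Per the labels and methods they aligned reads with STAR 2.0.4b to GRCm38 (Ensembl 76) and deposited, for each library, raw gene counts of uniquely aligned reads with CPM and RPKM made from them. The deposited CPM and RPKM were recomputed from the counts, matched them, and were otherwise not used. Levels given here are counts scaled by TMM factors. Genes over 1 CPM in at least 2 libraries, without 355 rRNA genes, were tested (15018) with edgeR 4.0.16 (R 4.3.3) in one fit of 22 libraries and 8 groups. Alternatives were limma 3.58.1 voomWithQualityWeights, which the authors used, DESeq2 1.42.0, RLE factors, no filter, a replicate block, parts of the libraries, and leaving out each library. P-values measure the spread between these libraries, and the floor of 3 reads covers counting error only.

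Same-numbered single positive and double negative libraries of a genotype deviated together (r = 0.593 and 0.215 in wild type, 0.113 and 0.166 in Cdh2-cKO), and the numbers come from the sample titles. Genes named were all 10 members, the 4 most abundant genes of each list, the 3 most similar genes of each member, marker genes, and others as said. The members and lists were chosen with earlier results of these data known. Only the comparison of single positive with double negative cells was tried on simulated counts. The changes put in were mostly larger than those of the 10 genes, and nothing here rests on the outcome.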

Additional observations from a re-analysis of the deposited data

How the results depend on the processing

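All 9 genes called higher in CD45- cells were called in each alternative run, and the count stayed at 9. Between single positive and double negative cells the count of the 10 genes called was 0, but 3 by limma-voom, 1 by DESeq2, 2 without the 2 libraries that stood apart together, and 4 with the replicate block in CD45- libraries alone; the last 2 settings were chosen after seeing the data. Leaving out 1 library gave 0 to 3, and 0 to 4 in wild type, where DESeq2 gave 1. The cause was not tested.

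Efemp1 turned below 0 in this comparison by limma-voom (-0.05), with the replicate block (-0.01; in CD45- libraries alone -0.30), in Cdh2-cKO libraries alone (-0.49) and without the libraries that stood apart (-0.09), and ranged from -0.09 to 0.37 with 1 library left out. Fbln2 was at -0.01 in Cdh2-cKO libraries alone. In the Cdh2-cKO comparison Fbln5 and Efemp2 were at -0.04 and -0.02 by DESeq2 and RLE factors. With 1 library left out, values there ranged from -0.16 to 1.15 for Fbln1, -0.33 to 0.78 for Fbln5, -0.61 to 2.71 for Fbln7, -0.38 to 0.36 for Efemp2, -0.24 to 0.64 for Fbn1 and -0.78 to 1.80 for Fbn2. Between genotypes in single positive cells Fbln2 ranged from -0.59 to 0.26 and Fbln7 from -3.43 to 0.59.

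Counts over all genes moved by over 1.5 times. Single positive against double negative gave 284 genes, 185 with the replicate block, 1396 with it in CD45- libraries alone, 718 by limma-voom, 982 by DESeq2, 92 without the filter, 1509 without the libraries that stood apart, 0 and 1149 in wild type and Cdh2-cKO libraries alone, and 30 to 878 with 1 library left out. In wild type 24 genes were called, 1 by limma-voom, 500 by DESeq2, 4 with the block, 73 without the libraries that stood apart and 4 to 475 with 1 left out. In Cdh2-cKO libraries the 5 called became 551, 626, 3, 917 and 1 to 603. DESeq2 also gave 134 genes between genotypes in single positive cells (1 by edgeR), 522 in double negative cells (0), 26 in CD45 single positive cells (0), and 558 for the difference between genotypes (1). Without the filter 62 genes were called in Cdh2-cKO libraries and 101 for that difference. With 1 library left out, the counts between genotypes ran to 89 in single positive cells, 604 in double negative cells and 637 for the difference. In wild type libraries alone, CD45- against CD45+ within TdTOSX- cells gave 1620 genes against 3656. The replicate block changed no call of the 10 genes in the fit of all libraries. No paired analysis was possible between genotypes, because the replicate numbers lie within a genotype. Groups of 2 or 3 libraries limit these comparisons. Eln lay at or under the detection floor in all 12 CD45+ libraries, and Fbln7 in 11 of them.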
